A study of Mus musculus with 39 samples.

Results

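The chemokines followed here are 10 genes read by symbol: Ccl2, Ccl3, Ccl4, Ccl5, Ccl6, Ccl9, Ccl12, Cxcl9, Cxcl10 and Cxcl16. They are among the 46333 genes listed in the female count table and the 54532 listed in the male one, and all 10 were present in both tables and passed the filter on low counts in every comparison. The libraries came from CD11b+ cells, labelled microglia, that were taken from the cerebrum with magnetic beads. WT mice (C57Bl6) and 5XFAD mice, which carry mutant human transgenes driven by the neuronal Thy1 promoter and form amyloid plaques, were kept in normoxia (NX, 21% O2) or chronic intermittent hypoxia (CIH, 6.5% O2 alternating with room air at 90-s intervals for 8 h per day by the labels). Exposure began at 4 months of age in all groups, and the study's methods give another low oxygen level and daily duration than the labels. Females were 10 months old and males 8 months old, so the F and M cohorts differ in sex, age, length of exposure and gene annotation at once and were not tested against each other. Each of the 8 groups had 5 libraries, except F WT NX with 4. The study's methods mention a female normoxia outlier without naming the library, and whether it is among those analysed here is not known. Nothing in the labels says whether 1 library is 1 animal, so p-values measure only the spread between these samples. The beads retain any CD11b+ cell, including monocytes, neutrophils and border macrophages as well as microglia.

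Chemokines are small secreted proteins that steer leukocytes by binding G protein-coupled receptors on them. Microglia make several, and the CC members Ccl3 and Ccl4 are known as genes that activated microglia express. Cxcl9 and Cxcl10 are classical targets of interferon signalling, and Ccl5 and Ccl12 can also be induced by it, whereas Cxcl16 is made as a membrane-anchored protein from which a soluble form is shed.

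Of the 10 genes, 8 lie on chromosome 11 and 2 on chromosome 5 (GRCm38, protein-coding genes). Ccl5, Ccl9, Ccl6, Ccl3 and Ccl4 stand in that order within 138.91 kb (chr11:83525778-83664683), with only 9245 bases between Ccl9 and Ccl6. Ccl2 and Ccl12 lie within 67.83 kb (chr11:82035571-82103400), Cxcl9 and Cxcl10 within 27.543 kb (chr5:92321347-92348889), and Cxcl16 stands alone at chr11:70453983-70459984. The 250 bases upstream of the annotated start were read from RefSeq (GRCm38.p6), which held entries for 6 of the 10 genes. The windows of 5 are shown because the results turn on them: Ccl6 and Ccl9, neighbours whose transcripts passed the FDR limit in opposite directions in 2 of the 4 genotype comparisons (F CIH and M NX), Ccl3, which had the largest fold change of the genes with an entry, and the neighbours Cxcl9 and Cxcl10. Each line runs 5′ to 3′ on the gene's own strand and ends at the base before the start. Capitals mark matches to 5 motifs that were searched on both strands: TATAAA (a core promoter motif), GAAANNGAA (a pattern of interferon-stimulated response elements), GGGANNTNC (a κB-type pattern), TGANTCA (AP-1) and AGGAAGT (an ETS-type site).

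Ccl6, chr11:83593088-83593337, minus strand: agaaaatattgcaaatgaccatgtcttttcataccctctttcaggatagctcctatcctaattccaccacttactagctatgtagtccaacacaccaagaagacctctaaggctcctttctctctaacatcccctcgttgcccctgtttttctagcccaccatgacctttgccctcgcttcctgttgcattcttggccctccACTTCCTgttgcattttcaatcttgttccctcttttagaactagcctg
Ccl9, chr11:83578637-83578886, minus strand: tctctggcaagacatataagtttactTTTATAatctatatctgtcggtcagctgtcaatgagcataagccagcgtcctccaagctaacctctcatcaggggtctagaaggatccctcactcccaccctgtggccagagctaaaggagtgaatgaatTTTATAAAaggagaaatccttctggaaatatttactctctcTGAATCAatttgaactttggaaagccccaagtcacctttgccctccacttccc
Ccl3, chr11:83649379-83649628, minus strand: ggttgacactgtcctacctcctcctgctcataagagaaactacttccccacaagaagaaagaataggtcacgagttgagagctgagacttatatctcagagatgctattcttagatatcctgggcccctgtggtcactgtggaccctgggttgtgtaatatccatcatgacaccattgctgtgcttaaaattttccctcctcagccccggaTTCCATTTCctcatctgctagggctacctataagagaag
Cxcl9, chr5:92328080-92328329, minus strand: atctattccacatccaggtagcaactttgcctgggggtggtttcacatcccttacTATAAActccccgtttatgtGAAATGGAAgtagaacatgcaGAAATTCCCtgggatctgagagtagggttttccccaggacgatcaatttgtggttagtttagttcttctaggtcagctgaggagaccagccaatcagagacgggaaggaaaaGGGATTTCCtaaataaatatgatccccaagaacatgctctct
Cxcl10, chr5:92348890-92349139, minus strand: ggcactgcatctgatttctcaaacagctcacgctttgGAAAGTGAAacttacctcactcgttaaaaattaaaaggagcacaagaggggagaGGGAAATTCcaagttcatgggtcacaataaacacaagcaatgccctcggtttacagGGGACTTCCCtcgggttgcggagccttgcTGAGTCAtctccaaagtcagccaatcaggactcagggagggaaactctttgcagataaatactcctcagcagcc

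Ccl6 held a reverse-strand ETS-type match 48 bases upstream of the start and none of the other motifs. The Ccl9 window held TATAAA at 224, 94 and 92 bases, the last 2 of which overlap on opposite strands, and an AP-1 match at 53 bases. Although the windows of Ccl6 and Ccl9 carried different motifs, they shared a run of 13 bases, GCCCTCCACTTCC, which 3 of 32851 promoters contain and which overlaps the ETS-type match in Ccl6. The run was picked as the longest that the windows share, and the 3 promoters include those of Ccl6 and Ccl9 themselves. Cxcl9 and Cxcl10 both held interferon-type matches (at 175 and 213 bases) and κB-type matches (at 154 and 42 bases in Cxcl9 and at 159, 103 and 102 bases in Cxcl10, where the last 2 overlap on opposite strands), and Cxcl9 also held TATAAA at 195 bases and Cxcl10 an AP-1 match at 74 bases. Ccl3 held 1 reverse-strand interferon-type match at 39 bases. Of all 32851 promoters read the same way, 12.4% held TATAAA, 7.13% the interferon-type pattern, 12.5% the κB-type pattern, 6.75% the AP-1 motif and 7.69% the ETS-type motif, so each match is common and describes the letters alone.

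Total counts were 14731683 to 25906121 per F library and 13457293 to 23095627 per M library, and no 2 libraries of a group agreed within sampling noise over 76 pairs. The markers P2ry12, Tmem119 and Cx3cr1 were present in all 39 libraries, and the summed level of 10 microglia markers was 24943 to 38971 CPM (reads of a gene per 1e+06 counted reads). That sum was lower in 5XFAD without overlap in all 4 genotype comparisons, for example 34964 to 38971 CPM in M WT NX and 24943 to 31175 CPM in M 5XFAD NX, and lower in M WT CIH (30026 to 34846 CPM) than in M WT NX. Several libraries stood apart. On the first principal component of the F NX libraries, F 5XFAD NX 4 (−43.9) lay among WT NX (−52.2 to −31.4) and not with the other 5XFAD NX libraries (31.1 to 67.8). F WT NX 1 had a summed level of 490 CPM for 7 monocyte markers, the median of its group being 59.6 CPM. Neutrophil markers summed to 252 to 1320 CPM in M WT NX and to 118 to 343 CPM in M WT CIH. In M 5XFAD NX they summed to 75.0 to 1395 CPM (median 199) and in M 5XFAD CIH to 58.8 to 224 CPM. M 5XFAD NX 4 and 5 were separated from replicates 1 to 3 on the first component of the M 5XFAD libraries. In bulk RNA, a change in the number of cells of a type cannot be told apart from a change in RNA per cell.

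Levels of different genes were compared per length, as FPKM, fragments scaled to gene length and library total. In F WT NX the mean FPKM ran from 119 for Ccl6 and 116 for Ccl4 through 73.9 for Ccl3, 65.5 for Ccl12, 44.0 for Ccl9, 37.7 for Cxcl16 and 18.6 for Ccl2 to 9.94 for Cxcl10, 7.73 for Ccl5 and 0.918 for Cxcl9. In that order neighbouring genes overlapped in range between libraries, except Cxcl16 and Ccl2, and Ccl5 and Cxcl9. M WT NX was led by Ccl3 at 114 FPKM, Ccl6 at 102, Ccl4 at 85.2 and Ccl12 at 84.2, and ended with Ccl5 at 8.49, Cxcl10 at 3.88 and Cxcl9 at 1.16. In the 4 5XFAD groups Ccl3, Ccl4 and Ccl6 had the 3 highest means. M 5XFAD CIH had 976 ± 307 FPKM of Ccl3, 616 ± 176 of Ccl4 and 535 ± 176 of Ccl6 (SD, n = 5), followed by Ccl12 at 92.2. F 5XFAD CIH had 405 ± 200 FPKM of Ccl4, 322 ± 137 of Ccl3 and 317 ± 46.7 of Ccl6 (SD, n = 5), followed by Ccl12 at 63.6. Ranges of these leading 3 genes overlapped with each other in both groups.

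**Figure D1:**
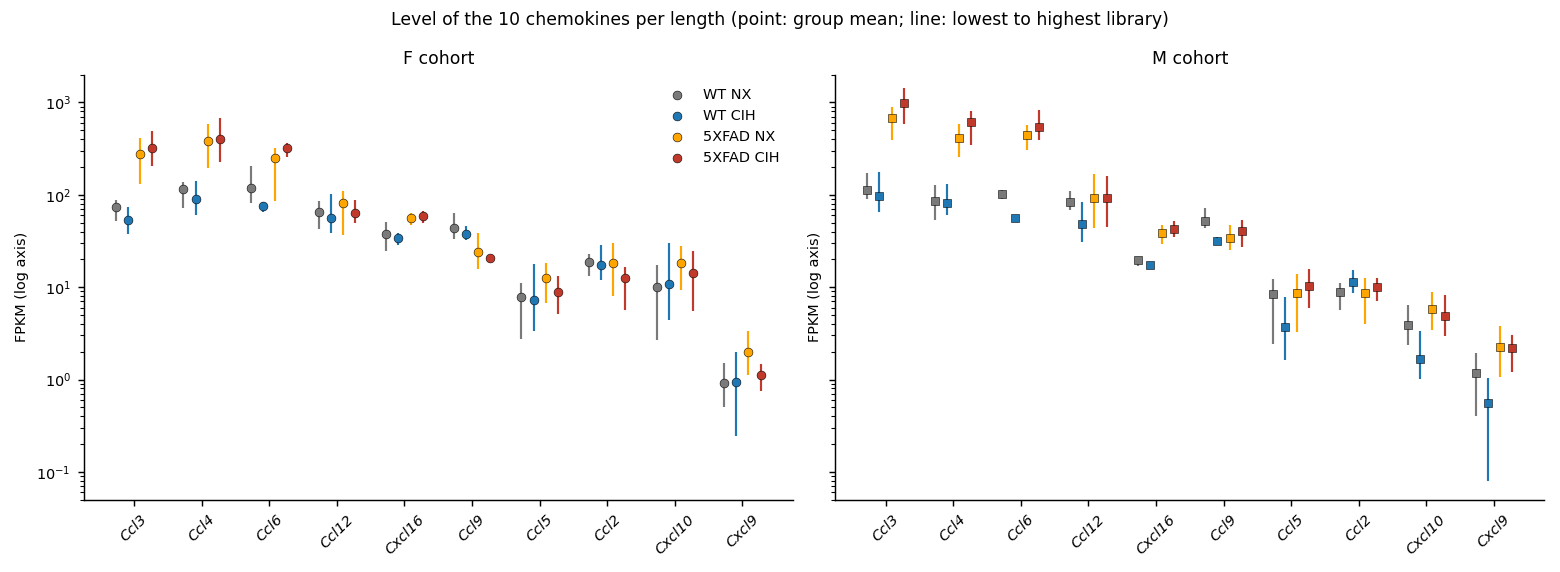
Mean FPKM (points, log axis) and the lowest to highest library (lines) of the 10 chemokines in the 4 groups of each cohort, ordered by their mean in M 5XFAD CIH. Ccl3, Ccl4 and Ccl6 lead in 5XFAD libraries of both cohorts, and Cxcl9 is lowest in every group.

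The first question was how the 5XFAD genotype altered these transcripts within each treatment. Ccl3 and Ccl4 rose in all 4 genotype comparisons, Ccl6 rose in 3 of them, and Cxcl16 rose past both limits in 1 (M CIH), past the FDR limit alone in 2 (F CIH and M NX) and past neither in F NX. A gene was called when the Benjamini-Hochberg FDR of edgeR's quasi-likelihood test was under 0.05 and its absolute log2 fold change (log2FC) over 1. By this rule 2 of the 10 chemokines were called in F NX, against 5.99% of all genes tested, and 3 in F CIH, against 13%. In males 3 of 10 were called under NX, against 8.25%, and 7 of 10 under CIH, against 18.7%. All of these calls were higher in 5XFAD. With FDR alone the counts were 2, 5, 5 and 8 of 10, against 13.9%, 51.9%, 17.8% and 49.0% of all genes. The median log2FC of the 10 genes was 0.97 in F NX, 0.53 in F CIH, 0.78 in M NX and 1.51 in M CIH, whereas the medians over all genes tested lay between −0.06 and 0.02. Scaling by library size alone instead of TMM lowered the median of all genes by 0.15, 0.19, 0.19 and 0.38, respectively, and turned the sign of no called chemokine.

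**Figure D2:**
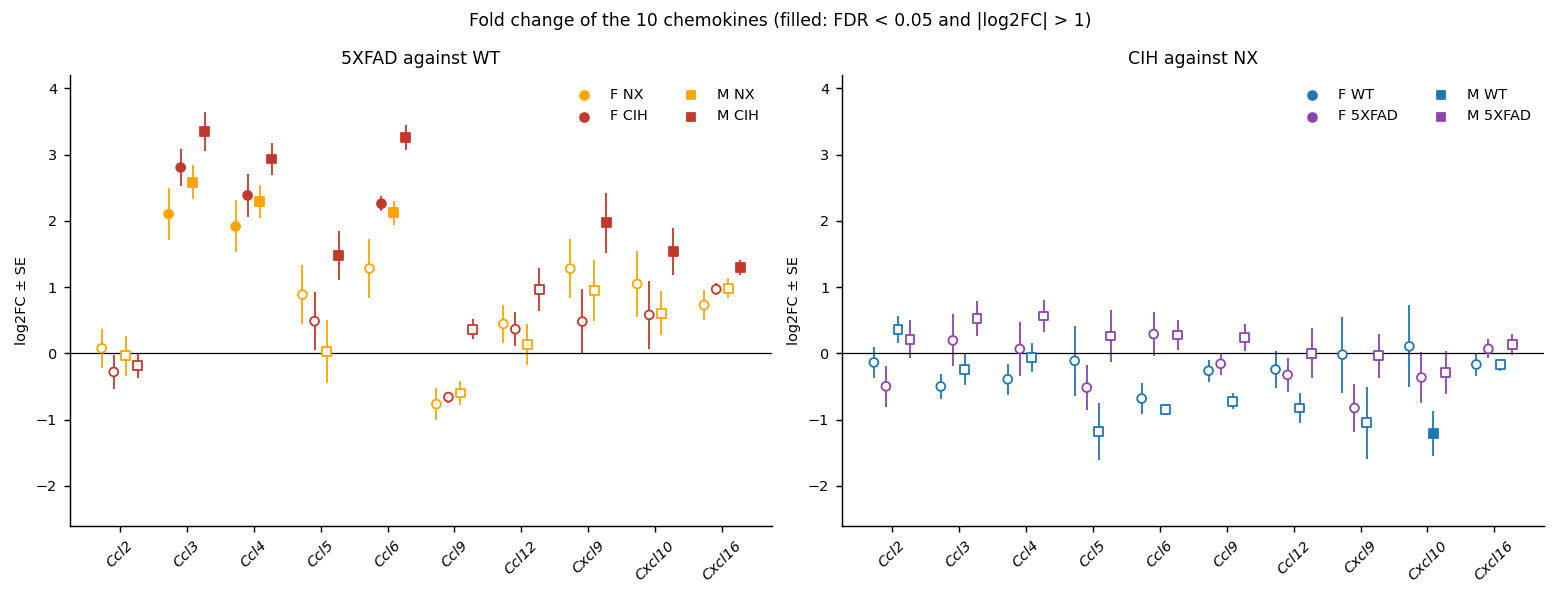
Log2FC ± SE of the 10 chemokines for 5XFAD against WT (left) and for CIH against NX (right) in each cohort, with filled symbols at FDR < 0.05 and an absolute log2FC > 1. Ccl3, Ccl4 and Ccl6 reach the highest values at left, Ccl9 is below 0 in 3 of 4 genotype comparisons, and the 1 filled symbol at right is Cxcl10 in M WT.

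Ccl3 and Ccl4, neighbouring genes for inflammatory CC ligands, rose in both cohorts. The M cohort is given first. Levels below are CPM scaled by TMM factors. In M WT CIH replicates 1 to 5, Ccl3 stood at 138, 66.3, 57.3, 50.4 and 61.0 CPM. In M 5XFAD CIH, Ccl3 stood at 746, 446, 823, 667 and 1119 CPM. No library of one genotype reached the other, and the ratio of the means was 10.2 (log2FC 3.35 ± 0.29, SE, FDR 5.09e-07). Under NX, Ccl3 was at 74.2, 69.0, 89.3, 73.1 and 134 CPM in M WT and at 707, 642, 597, 393 and 299 CPM in M 5XFAD (log2FC 2.59 ± 0.26, FDR 2.07e-05). The 2 lowest of these 5XFAD values belonged to replicates 4 and 5, which stood apart on the first component. Without them the log2FC of Ccl3 was 2.88.

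Ccl4 followed the same order at a lower fold. In M WT CIH it was at 87.8, 46.1, 40.9, 45.3 and 51.0 CPM, and in M 5XFAD CIH at 482, 230, 430, 376 and 549 CPM, again without overlap (log2FC 2.93 ± 0.25, FDR 3.33e-07). In M WT NX it was at 53.4, 51.8, 35.1, 59.0 and 84.4 CPM, and in M 5XFAD NX at 303, 396, 292, 233 and 169 CPM (log2FC 2.30 ± 0.25, FDR 4.08e-05). Every 5XFAD library lay above every WT library of its treatment.

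In females the pair rose under both treatments, but the NX result rested on fewer libraries. F WT CIH had 37.9, 27.0, 53.1, 42.7 and 36.0 CPM of Ccl3, and F 5XFAD CIH had 228, 167, 165, 366 and 434 CPM (log2FC 2.81 ± 0.28, FDR 3e-06). For Ccl4 the values were 49.8, 36.9, 85.2, 53.3 and 51.6 CPM in F WT CIH and 203, 190, 155, 381 and 500 CPM in F 5XFAD CIH (log2FC 2.39 ± 0.32, FDR 4.05e-05). Neither gene overlapped between these groups. Under NX, Ccl3 was at 66.6, 65.5, 38.7 and 51.1 CPM in F WT and at 242, 332, 163, 88.5 and 370 CPM in F 5XFAD (log2FC 2.10 ± 0.39, FDR 0.0175). Ccl4 was at 75.4, 86.8, 44.3 and 83.9 CPM in F WT NX and at 265, 382, 175, 110 and 441 CPM in F 5XFAD NX (log2FC 1.92 ± 0.39, FDR 0.021). The lowest 5XFAD value of both genes came from replicate 4, which lay among the WT libraries on the first component. Without it the log2FC was 2.31 for Ccl3 (FDR 0.000119) and 2.11 for Ccl4 (FDR 0.000367). Leaving out F WT NX 3, F WT NX 4 or F 5XFAD NX 5 put the FDR of Ccl3 at 0.0656, 0.0562 and 0.0501 while its log2FC stayed between 1.89 and 2.06. The FDR of Ccl4 was 0.0503 to 0.0709 without any 1 of F WT NX 2, 3 or 4 or of F 5XFAD NX 1, 2 or 5, at log2FC of 1.68 to 2.01.

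The ratio of Ccl3 to Ccl4 read counts was 0.78 ± 0.13 (SD, n = 4) in F WT NX, 0.87 ± 0.05 in F 5XFAD NX, 0.72 ± 0.07 in F WT CIH and 0.98 ± 0.11 in F 5XFAD CIH (SD, n = 5). In males it was 1.62 ± 0.53 in M WT NX, 1.89 ± 0.30 in M 5XFAD NX, 1.34 ± 0.19 in M WT CIH and 1.84 ± 0.19 in M 5XFAD CIH (SD, n = 5). Read counts of the cohorts were made on different gene annotations, so a ratio is not comparable between them.

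A list of 18 genes that respond to enzymatic dissociation was read beside these values, because the cells were digested while warm. Its summed level was 1973 to 3135 CPM in M WT CIH and 2150 to 4508 CPM in M 5XFAD CIH (medians 2331 and 2361), and 2105 to 2792 CPM in M WT NX and 1519 to 2167 CPM in M 5XFAD NX (medians 2189 and 1805). In females it was 2716 to 6755 CPM in F WT CIH and 2223 to 4957 CPM in F 5XFAD CIH (medians 3011 and 4357), and 2514 to 4802 CPM in F WT NX and 3707 to 5403 CPM in F 5XFAD NX (medians 3327 and 5301). The sums overlapped between genotypes in all 4 comparisons, and the median was higher in 5XFAD in 3 of them and lower in M NX. By gene, 17 of 18 had a log2FC above 0 in F NX (median 0.44), 8 in F CIH (−0.02), 5 in M NX (−0.53) and 8 in M CIH (−0.24). Of the 18, 2 were called higher in 5XFAD in F NX, 1 in F CIH and 2 in M CIH, and 3 were called lower in M NX. Atf3, a stress-induced transcription factor, had a log2FC of 1.67 in M CIH (FDR 1.85e-05) and 1.36 in F NX (FDR 0.0177), Ier3 1.15 in M CIH (FDR 0.00475) and 1.10 in F CIH (FDR 0.00336), and Hspa1b, a heat shock protein, 1.22 in F NX (FDR 0.0352). Nr4a1, an immediate early gene, had a log2FC of −1.43 in M NX (FDR 0.000249). The part of these genes in the levels of Ccl3 and Ccl4 was not tested.

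**Figure D3:**
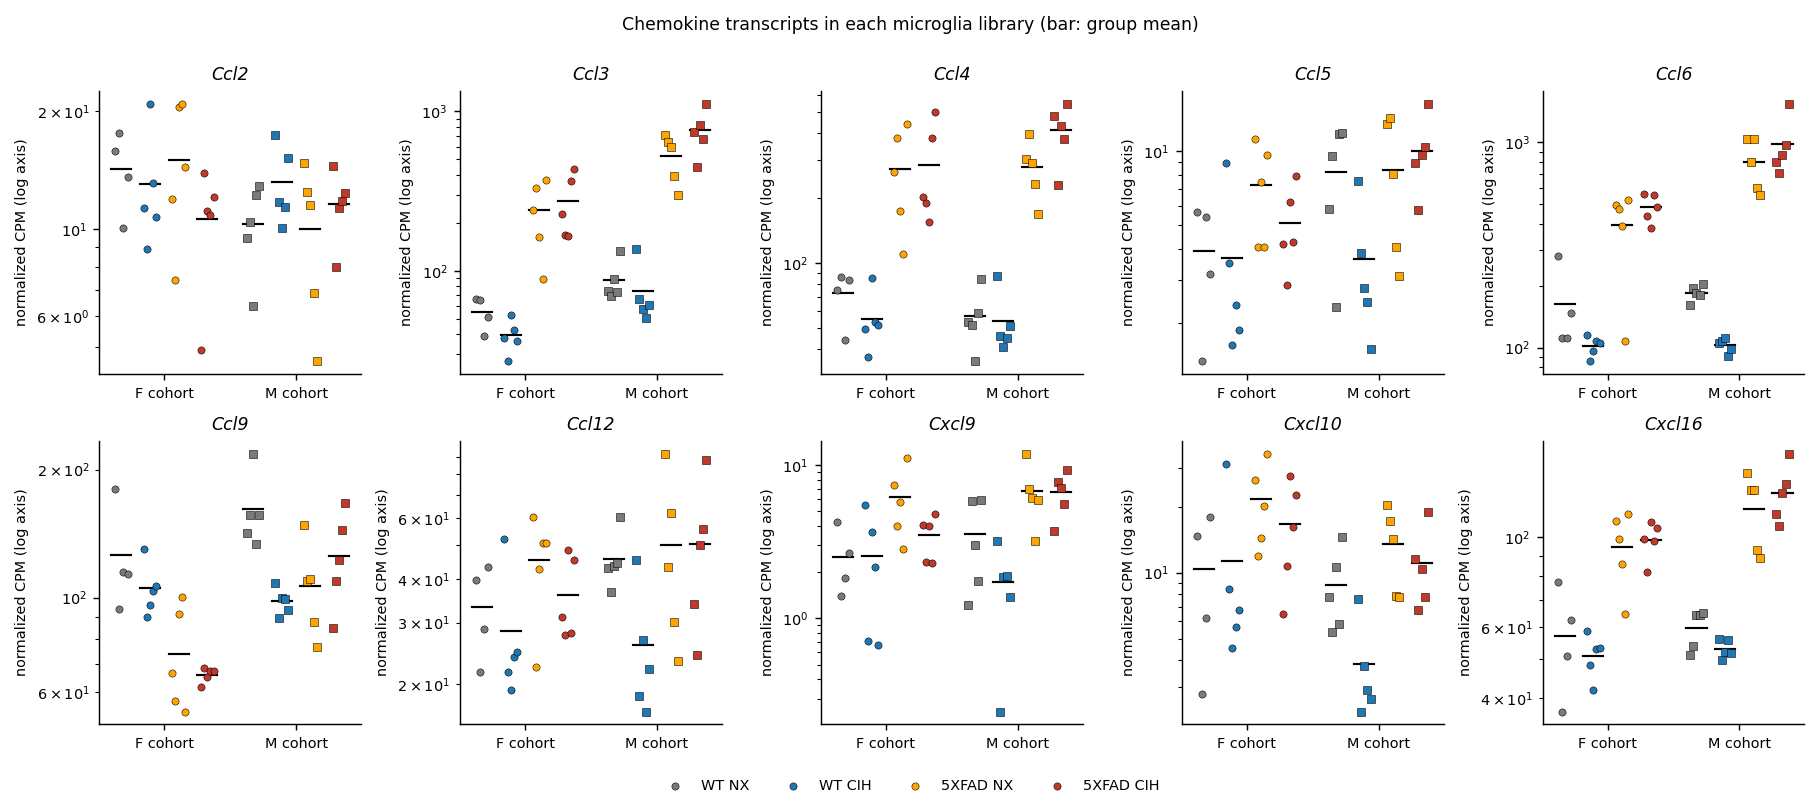
Normalized CPM (log axis) of each chemokine in every library, with circles for the F cohort, squares for the M cohort and a bar at each group mean. Ccl3, Ccl4 and Ccl6 separate 5XFAD from WT libraries, with Ccl6 of F 5XFAD NX 4 at 108 CPM among the WT values, and Ccl2 overlaps across the groups of each cohort.

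Ccl6 and Ccl9, CC chemokines of rodents that bind Ccr1, lie next to each other and are described together. In M WT CIH, Ccl6 stood at 106, 108, 111, 90.9 and 98.2 CPM. In M 5XFAD CIH it stood at 797, 709, 867, 969 and 1541 CPM, which is 9.52 times the WT mean (log2FC 3.26 ± 0.18, FDR 6.8e-09). Within WT the spread was small (SD 8.05 CPM), and every 5XFAD library was above every WT one. In M NX, Ccl6 was at 161, 195, 184, 181 and 203 CPM in WT and at 1031, 804, 1041, 595 and 551 CPM in 5XFAD (log2FC 2.12 ± 0.19, FDR 6.44e-06). F CIH gave 115, 85.6, 96.6, 107 and 105 CPM in WT and 561, 436, 381, 551 and 486 CPM in 5XFAD (log2FC 2.26 ± 0.11, FDR 5.66e-09). The F NX comparison did not pass the FDR limit. There Ccl6 was at 281, 111, 112 and 148 CPM in WT and at 494, 474, 390, 108 and 521 CPM in 5XFAD (log2FC 1.28 ± 0.44, FDR 0.0759). The highest WT value came from F WT NX 1, the library with the high monocyte markers, and the lowest 5XFAD value from F 5XFAD NX 4. Without F 5XFAD NX 4 the log2FC was 1.52 (FDR 0.00169), and without F WT NX 1 it was 1.68 (FDR 0.0537). DESeq2 gave 1.31 (FDR 0.0119) on all 9 libraries. The likelihood ratio test (1.28, FDR 0.0259) and a fit of all 4 F groups (1.28, FDR 0.00804) also called Ccl6.

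Ccl9 was lower in 5XFAD by the FDR limit in F CIH and M NX, without reaching the fold limit. In F WT CIH it was at 130, 90.0, 95.9, 104 and 107 CPM, and in F 5XFAD CIH at 61.8, 68.2, 65.0, 67.3 and 67.2 CPM, without overlap (log2FC −0.66 ± 0.08, FDR 2.41e-05). In M WT NX it was at 142, 156, 218, 134 and 156 CPM, and in M 5XFAD NX at 148, 109, 111, 87.6 and 76.4 CPM (log2FC −0.60 ± 0.18, FDR 0.0399). One 5XFAD library thus reached into the WT range. Without M WT NX 3, the highest WT value, the log2FC was −0.47 (FDR 0.107), and without M 5XFAD NX 4 and 5 it was −0.40 (FDR 0.0584). F NX gave a log2FC of −0.76 ± 0.24 (FDR 0.0571), from 180, 93.9, 115 and 113 CPM in WT and 66.6, 57.2, 91.3, 100 and 54.0 CPM in 5XFAD. The sign was opposite in M CIH, where M WT was at 108, 89.5, 100, 99.0 and 93.4 CPM and M 5XFAD at 84.7, 109, 123, 144 and 167 CPM (log2FC 0.37 ± 0.15, FDR 0.0506). Of 7 border macrophage markers, 6 were called lower in 5XFAD in F NX, 5 in F CIH, 5 in M NX and 1 in M CIH, with medians of −1.31, −1.10, −1.09 and −0.51, and their part in the level of Ccl9 was not tested.

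The ratio of Ccl6 to Ccl9 read counts separated the genotypes, apart from 1 library. It was 1.25 ± 0.24 (SD, n = 4) in F WT NX, 0.97 ± 0.06 in F WT CIH, 1.18 ± 0.20 in M WT NX and 1.05 ± 0.11 in M WT CIH (SD, n = 5). In 5XFAD it was 7.34 ± 1.31 in F CIH, 7.54 ± 1.05 in M NX and 7.78 ± 1.42 in M CIH (SD, n = 5). F 5XFAD NX averaged 6.14 ± 3.45 (SD, n = 5), of which replicate 4 had 1.08 and the highest library 9.65. In F the highest ratio in any WT library was 1.56, and the lowest in 5XFAD CIH was 5.85. In M the highest ratio in any WT library was 1.35, and the lowest in 5XFAD was 6.48. As with Ccl3 and Ccl4, the ratio is not comparable between the cohorts.

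**Figure D4:**
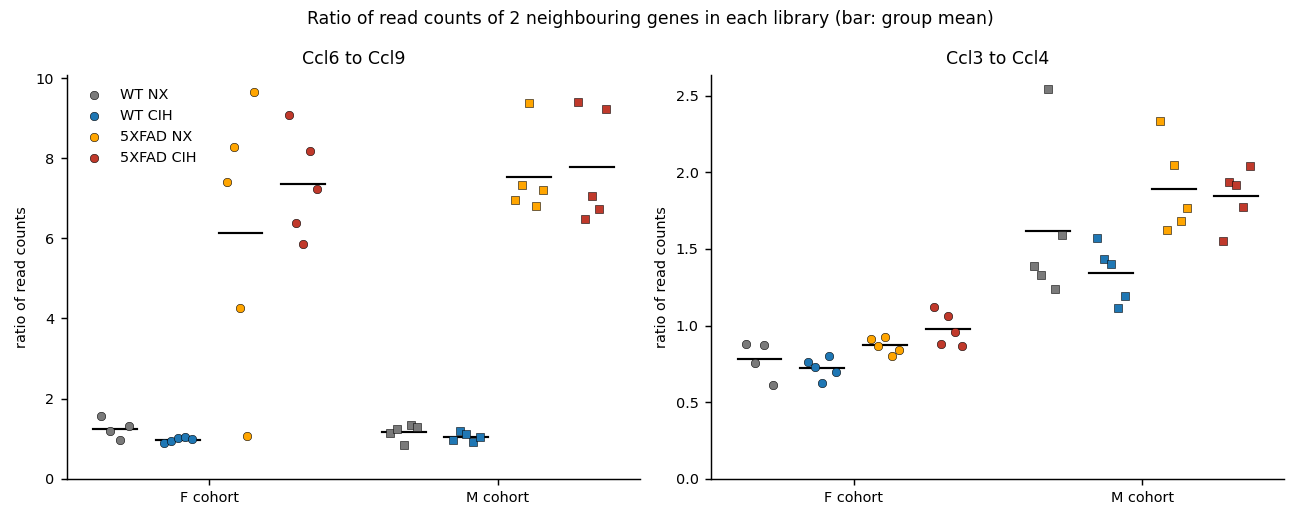
Ratio of read counts of Ccl6 to Ccl9 (left) and of Ccl3 to Ccl4 (right) in every library by group and cohort, with a bar at the group mean. The Ccl6 to Ccl9 ratio is 0.88 to 1.56 in F WT libraries and 5.85 to 9.07 in F 5XFAD CIH, with F 5XFAD NX 4 at 1.08 among the F WT values. In M it is 0.84 to 1.35 in WT libraries and 6.48 to 9.41 in both 5XFAD groups.

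By reads, the makeup of the 10 transcripts shifted with these genes. Their summed level was 538 ± 158 CPM (SD, n = 4) in F WT NX, 412 ± 60.6 in F WT CIH, 1175 ± 406 in F 5XFAD NX and 1277 ± 318 in F 5XFAD CIH (SD, n = 5). M libraries summed to 627 ± 77.9, 431 ± 82.3, 1924 ± 549 and 2495 ± 736 CPM in the same order. Ccl3, Ccl4 and Ccl6 together made up 47.9% to 53.8% of this sum on average in the 4 WT groups and 74.3% to 86.0% in the 4 5XFAD groups, and Ccl9 made up 23.1% to 25.8% in WT groups and 5.18% to 7.86% in 5XFAD groups. These are shares of reads that were not scaled to gene length (3045 bases for Ccl9 and 660 for Ccl4). They give longer genes more weight and are not shares of transcript molecules.

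Cxcl16, the membrane-anchored ligand of Cxcr6, changed less but with little spread. In M WT CIH it was at 56.1, 49.6, 51.9, 55.6 and 51.7 CPM, and in M 5XFAD CIH at 114, 107, 129, 135 and 161 CPM (log2FC 1.29 ± 0.11, FDR 3.62e-07). It passed the FDR limit but not the fold limit in F CIH, from 58.6, 48.3, 41.8, 53.0 and 53.2 CPM in WT to 99.0, 81.9, 109, 98.2 and 105 CPM in 5XFAD (log2FC 0.97 ± 0.09, FDR 2.01e-06). The same held in M NX, from 51.1, 53.7, 64.1, 64.2 and 64.8 CPM in WT to 144, 131, 131, 93.1 and 89.1 CPM in 5XFAD (log2FC 0.98 ± 0.15, FDR 0.000642). In all 3 comparisons every 5XFAD library lay above every WT library. The fold was close to the limit, so small changes decided the call: in M NX it was 1.01 to 1.07 without any 1 of M WT NX 3, 4 or 5 or M 5XFAD NX 4 or 5 and 1.18 without both of the last, in F CIH it was 1.02 without F WT CIH 1 and 1.03 without F 5XFAD CIH 2, and in M CIH it was 0.91 when scaled by library size alone. F NX gave a log2FC of 0.73 ± 0.22 (FDR 0.0538), with 77.7, 37.0, 50.8 and 62.6 CPM in WT and 110, 99.1, 86.0, 64.7 and 114 CPM in 5XFAD, where F 5XFAD NX 4 and F WT NX 1 made the ranges overlap. Without F 5XFAD NX 4 the FDR was 0.00673 at a log2FC of 0.83.

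Of the genotype comparisons, the interferon-linked chemokines Cxcl9, Cxcl10 and Ccl5 were called in M CIH. Whether their fold differed from that in M NX was tested by the interaction given further on. Cxcl9, a ligand of Cxcr3, was at 3.20, 0.247, 1.86, 1.90 and 1.39 CPM in M WT CIH and at 3.71, 7.73, 7.06, 5.58 and 9.29 CPM in M 5XFAD CIH (log2FC 1.97 ± 0.45, FDR 0.00239). Cxcl10, which binds the same receptor, was at 7.58, 2.32, 3.73, 2.90 and 2.66 CPM in M WT CIH and at 11.6, 6.74, 10.4, 7.74 and 18.9 CPM in M 5XFAD CIH (log2FC 1.54 ± 0.35, FDR 0.00225). Ccl5, a ligand of Ccr1 and Ccr3 that T cells and NK cells also make, was at 7.52, 3.85, 2.76, 2.42 and 1.56 CPM in M WT CIH and at 8.89, 5.74, 9.61, 10.4 and 15.6 CPM in M 5XFAD CIH (log2FC 1.48 ± 0.37, FDR 0.00423). Cxcl9 did not overlap between the genotypes, and Cxcl10 and Ccl5 overlapped through M WT CIH 1, the highest WT library for all 3 genes. Without that library the log2FC was 2.33 for Cxcl9, 1.94 for Cxcl10 and 1.93 for Ccl5. These levels were low, and single libraries held 5 to 189 reads of Cxcl9 and 24 to 240 of Ccl5.

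In the other genotype comparisons the 3 genes had a log2FC between 0.03 and 1.28, and none passed the FDR limit. In F NX the log2FC was 1.28 ± 0.44 for Cxcl9 (FDR 0.0763), 1.05 ± 0.50 for Cxcl10 (FDR 0.171) and 0.89 ± 0.44 for Ccl5 (FDR 0.185), and DESeq2 and the likelihood ratio test called Cxcl9 (FDR 0.0209 and 0.0346). F CIH turned on F WT CIH 1, which had 31.2 CPM of Cxcl10 where the other F WT CIH libraries had 8.46, 4.51, 5.62 and 6.72 CPM. F 5XFAD CIH had 6.50, 10.8, 27.5, 16.1 and 22.6 CPM of Cxcl10 (log2FC 0.58, FDR 0.362). Without F WT CIH 1 the log2FC was 1.41 for Cxcl10 (FDR 0.00577) and 1.12 for Ccl5 (FDR 0.0109). In M NX, Ccl5 was at 5.80, 9.50, 2.33, 11.8 and 11.8 CPM in WT and at 12.9, 13.7, 8.06, 4.07 and 3.10 CPM in 5XFAD (log2FC 0.03 ± 0.48, FDR 0.98). Cxcl10 had a log2FC of 0.61 there (FDR 0.257), or 0.96 (FDR 0.0173) without M 5XFAD NX 4 and 5.

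Summed T cell markers moved with genotype as well. The sum of 10 T cell markers was 4.27 to 10.6 CPM in M WT CIH and 24.5 to 38.4 CPM in M 5XFAD CIH, where 5 of the 7 tested were called higher in 5XFAD and 1 lower. The T cell receptor component Cd3e averaged 0.0761 and 1.72 CPM in these groups. T cell markers summed to 3.48 to 6.54 CPM in F WT CIH and to 19.7 to 33.4 CPM in F 5XFAD CIH, where Ccl5 was not called with all libraries. Under NX they summed to 5.52 to 10.2 CPM in M WT and 20.8 to 41.9 CPM in M 5XFAD, where Ccl5 had a log2FC of 0.03, and to 2.90 to 6.78 CPM in F WT and 9.78 to 31.0 CPM in F 5XFAD. The T cell sums thus did not overlap between genotypes in any of the 4 comparisons. In F NX, F CIH and M NX, however, only 3 of the 10 markers were tested. In each of these comparisons 1 was called higher, and 2 were above 0 and 1 below. Their log2FC ran from −0.55 to 3.58, −0.37 to 4.38 and −1.01 to 5.25, respectively, so the sums there rest on few markers. The sums of 6 NK markers were 2.79 to 5.39 CPM in M WT CIH and 7.43 to 11.0 CPM in M 5XFAD CIH. They overlapped between genotypes in the other comparisons, for example 3.63 to 10.9 CPM in M WT NX and 4.58 to 18.9 CPM in M 5XFAD NX. The sums of B cell markers overlapped in all 4 comparisons. The part of such cells in the levels of Ccl5, Cxcl9 and Cxcl10 was not tested.

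Ccl12 and Ccl2, neighbouring genes for ligands of the monocyte receptor Ccr2, were not called for genotype. Ccl12 came closest in M CIH, at 45.4, 18.5, 26.8, 16.7 and 22.1 CPM in WT and 33.9, 24.2, 50.1, 55.6 and 88.0 CPM in 5XFAD (log2FC 0.97 ± 0.32, FDR 0.0219). It passed both limits there without M WT CIH 1 (log2FC 1.27, FDR 0.00354), M 5XFAD CIH 1 (1.08, FDR 0.0155) or M 5XFAD CIH 2 (1.16, FDR 0.00466). Ccl2 was within 4.58 to 20.9 CPM in all 39 libraries, and its log2FC by genotype was 0.08 in F NX, −0.28 in F CIH, −0.03 in M NX and −0.18 in M CIH, with FDR of 0.395 to 0.964. Group means of Ccl2 ran from 10.0 ± 4.18 CPM in M 5XFAD NX to 15.0 ± 5.74 CPM in F 5XFAD NX (SD, n = 5), and the ranges of the groups overlapped in each cohort.

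The second question was how CIH altered the chemokines within a genotype. In WT males 9 of the 10 had a negative log2FC, the median of the 10 being −0.77 and that of all genes −0.01. Cxcl10 fell past both limits, and with it 4 of 10 passed the FDR limit whatever their fold. The share of all genes tested was 2.51% by both limits and 28.6% by FDR alone. Cxcl10 was at 7.73, 5.38, 10.6, 5.85 and 14.5 CPM in M WT NX and, as given above, at 2.32 to 7.58 CPM in M WT CIH (log2FC −1.21 ± 0.34, FDR 0.0156). The groups overlapped through M WT CIH 1. This call did not hold without M WT NX 5 (log2FC −0.96, FDR 0.0538) or in a fit of all 4 M groups (FDR 0.0633).

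Ccl6 fell by 0.85 on the log2 scale (SE 0.08, FDR 0.000217) between M WT NX and M WT CIH, from 161 to 203 CPM in NX to 90.9 to 111 CPM in CIH, without overlap. Ccl9 fell by 0.72 (SE 0.12, FDR 0.000636), from 134 to 218 CPM to 89.5 to 108 CPM, also without overlap. Ccl12, at 42.9, 36.8, 43.6, 44.4 and 60.4 CPM in M WT NX, had a log2FC of −0.82 ± 0.22 (FDR 0.012). Ccl5 had a log2FC of −1.18 ± 0.43 (FDR 0.0515) and was called by DESeq2 (FDR 0.0227), by the likelihood ratio test (FDR 0.029) and without M WT NX 1 (−1.28, FDR 0.0447), M WT NX 3 (−1.42, FDR 0.0121) or M WT CIH 1 (−1.62, FDR 0.00875). Without M WT CIH 1, Ccl12 was also past both limits (−1.12, FDR 0.000265). Cxcl9, at 1.22, 5.80, 3.02, 1.75 and 5.92 CPM in M WT NX, had a log2FC of −1.05 ± 0.54 (FDR 0.165) and overlapped between the groups. Ccl3 (−0.24), Ccl4 (−0.06), Cxcl16 (−0.17) and Ccl2 (0.36) did not pass the test either.

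Neutrophil and monocyte markers went down in the same comparison. Of 8 neutrophil markers 7 were called lower in M WT CIH, and of 7 monocyte markers 3. All 3 NK markers tested were below 0 (median log2FC −1.01, 0 called), 9 of 10 microglia markers were below 0 and 4 lower by the FDR limit, and 3 of 7 border macrophage markers were lower by the FDR limit. Of the dissociation list Hspa1b was called higher (1.57, FDR 0.0457). Astrocyte markers went the other way, with all 5 tested above 0 (median log2FC 1.47, 1 called). Of 5 oligodendrocyte markers 1 was called higher and 0 lower, and of 3 B cell markers tested 2 were lower by the FDR limit. The part of these genes in the chemokine levels was not tested. The summed monocyte markers were 65.1 to 161 CPM in M WT NX and 42.7 to 82.4 CPM in M WT CIH. M WT NX 3 and 5 had the highest neutrophil sums, 910 and 1320 CPM, where the other M WT NX libraries had 275, 252 and 460 CPM. Without these 2 libraries the log2FC was −0.81 for Ccl6 (FDR 0.00365), −0.56 for Ccl9 (FDR 0.0041), −0.68 for Ccl12 (FDR 0.0814) and −0.73 for Cxcl10 (FDR 0.179), and Ccl5 was the 1 gene called (log2FC −1.32, FDR 0.0407). All 4 stayed below 0, Ccl6 and Ccl9 stayed within the FDR limit, and Ccl12 and Cxcl10 did not. The neutrophil sums of the 3 M WT NX libraries left overlapped with those of M WT CIH (118 to 343 CPM, median 140), and the part of neutrophils in these levels was not tested.

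No chemokine was called for CIH in the other 3 pairs, where edgeR called 0% of all genes tested in F WT, 0% in F 5XFAD and 0% in M 5XFAD. At an unadjusted p under 0.05 there were 2 chemokines in F WT, 1 in F 5XFAD and 1 in M 5XFAD, and 565, 470 and 473 of all genes. DESeq2 and the likelihood ratio test also called none of the 10, and of all genes 0 in both F pairs and 1 in M 5XFAD. In F WT, Ccl6 had a log2FC of −0.68 ± 0.24 (FDR 0.96), which was −0.27 without F WT NX 1. In M 5XFAD, Ccl4 had a log2FC of 0.57 ± 0.24 and Ccl3 of 0.53 ± 0.26 (FDR 0.995 for both), or 0.33 and 0.24 without M 5XFAD NX 4 and 5. In that pair all 18 dissociation genes were above 0 (median 0.51, 9 at an unadjusted p under 0.05) and all 8 neutrophil markers below 0 (median −1.60, 5 at an unadjusted p under 0.05), none of them called, and their part was not tested. In F 5XFAD, Ccl3 and Ccl6 had a log2FC of −0.01 and 0.05 without F 5XFAD NX 4.

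Whether the genotype effect itself differed between treatments was tested as an interaction within each cohort. The NX and CIH pairs of a genotype and the WT and 5XFAD pairs of a treatment share libraries, so their fold changes are not independent. In males the interaction was above 0 for 9 of 10 chemokines. Their median was 0.88 on the log2 scale and that of all genes −0.04, but edgeR called 0 of 10 and 0% of all genes. In the same fit 17 of the 18 dissociation genes were above 0, with a median of 0.69 and 7 at an unadjusted p under 0.05, and their part was not tested. At an unadjusted p under 0.05 there were 3 of the 10 and 3857 of all 15813 genes. The 3 were Ccl6 (log2FC 1.13 ± 0.27, FDR 0.117), Ccl9 (0.96 ± 0.25, FDR 0.117) and Ccl5 (1.45 ± 0.65, FDR 0.18). The interaction of Cxcl9 was 1.01 ± 0.68 (FDR 0.354) and that of Cxcl10 0.93 ± 0.52 (FDR 0.266). DESeq2 called Ccl6 (FDR 0.0171), as did the likelihood ratio test (FDR 0.0301). Without M 5XFAD NX 4 and 5 the log2FC was 0.87 for Ccl6 and 0.75 for Ccl9 (FDR 0.379 for both). In females edgeR called 0 of 10 and 0% of all genes, and 1 of the 10 and 589 of all genes had an unadjusted p under 0.05. That gene was Ccl6 (log2FC 0.96 ± 0.45, FDR 0.952), with 0.56 without F WT NX 1.

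Other genes of the chemokine system were read from fixed lists. Of all genes tested, 5.99% were called in F NX, 13% in F CIH, 8.25% in M NX and 18.7% in M CIH. Of 7 receptors of these chemokines, 4 or 5 were tested in each pair. In F NX 1 was called higher and 2 lower in 5XFAD, in F CIH 2 lower, in M NX 2 lower and in M CIH 1 higher and 1 lower. Ccr2, the receptor for Ccl2 and Ccl12, averaged 26.1 ± 2.31 CPM in F WT CIH and 12.2 ± 2.38 CPM in F 5XFAD CIH (SD, n = 5, log2FC −1.08, FDR 6.53e-06), with −1.31 in F NX (FDR 0.0306). Ccr1, which binds Ccl3, Ccl5, Ccl6 and Ccl9, had a log2FC of −2.14 in F NX (FDR 0.0359) and −1.33 in M NX (FDR 0.00207), and passed the FDR limit alone in F CIH (−0.96) and M CIH (−0.85). In F NX the 7 monocyte markers, of which Ccr2 is 1, had a median log2FC of −1.27, and F WT NX 1 held 490 CPM of them where the other F WT NX libraries had 38.3 to 65.1 CPM. Ccr3, an eosinophil receptor at 0.550 to 3.85 CPM on average, had a log2FC of −2.67 in F CIH (FDR 2.35e-05) and −2.23 in M NX and M CIH (FDR 0.0232 and 0.00327). Cxcr6, the receptor for Cxcl16, was the 1 receptor called higher, with a log2FC of 1.64 in M CIH (FDR 0.0144) and also past both limits in F NX (FDR 0.0413), at group means of 0.531 to 2.08 CPM. T cell markers had a median log2FC of 3.58 over the 7 tested in M CIH and 1.70 over the 3 tested in F NX, and of the NK markers 2 of 3 tested were called higher in M CIH and 1 of 2 in F NX. The part of these markers and of the border macrophage markers, whose counts stand beside Ccl9, in the receptor levels was not tested.

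Of 28 other chemokines 11 or 12 were tested, and 1 to 4 were called in each genotype comparison: 1 lower in F NX, 2 higher and 2 lower in F CIH, 1 higher and 3 lower in M NX and 3 higher in M CIH. Cxcl14 rose most, from 2.17 ± 1.18 CPM in M WT CIH to 29.9 ± 15.2 CPM in M 5XFAD CIH (SD, n = 5, log2FC 3.78, FDR 1.78e-06), with 3.68 in F CIH (FDR 5.21e-08) and 3.30 in M NX (FDR 0.00016). Cxcl13, which attracts B cells, had a log2FC of 2.33 in F CIH (FDR 0.00444) and 1.77 in M CIH (FDR 0.0319). Pf4, also a border macrophage marker, fell in F NX (log2FC −1.68, FDR 0.0245) and M NX (−1.12, FDR 0.0246), and Ccl7, a Ccr2 ligand, fell in M NX (−1.62, FDR 0.00934) and F CIH (−1.06, FDR 0.0024). Among 15 other receptors, Cxcr4, the receptor for Cxcl12, rose from 6.79 ± 1.56 to 47.8 ± 7.70 CPM in F CIH (SD, n = 5, log2FC 2.83, FDR 8.59e-09), by 2.54 in M CIH (FDR 4.67e-06) and by 1.56 in M NX (FDR 0.00327). Ccrl2, an atypical receptor not known to signal, rose in F CIH (2.01, FDR 0.000105), M CIH (1.95, FDR 1.43e-05) and F NX (1.80, FDR 0.0429), and Ccr7, a receptor of dendritic cells and lymphocytes, fell in F CIH (−2.54, FDR 0.00367). Dendritic cell markers summed to 26.8 to 34.0 CPM in F WT CIH and to 12.5 to 16.2 CPM in F 5XFAD CIH. Of the 4 tested there, 2 were called lower and 1 higher, and their part in the level of Ccr7 was not tested. Cx3cr1, the microglial fractalkine receptor, was lower in 5XFAD in all 4 comparisons by FDR alone, with log2FC of −0.46 to −0.71. None of these genes was called for CIH.

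**Figure D5:**
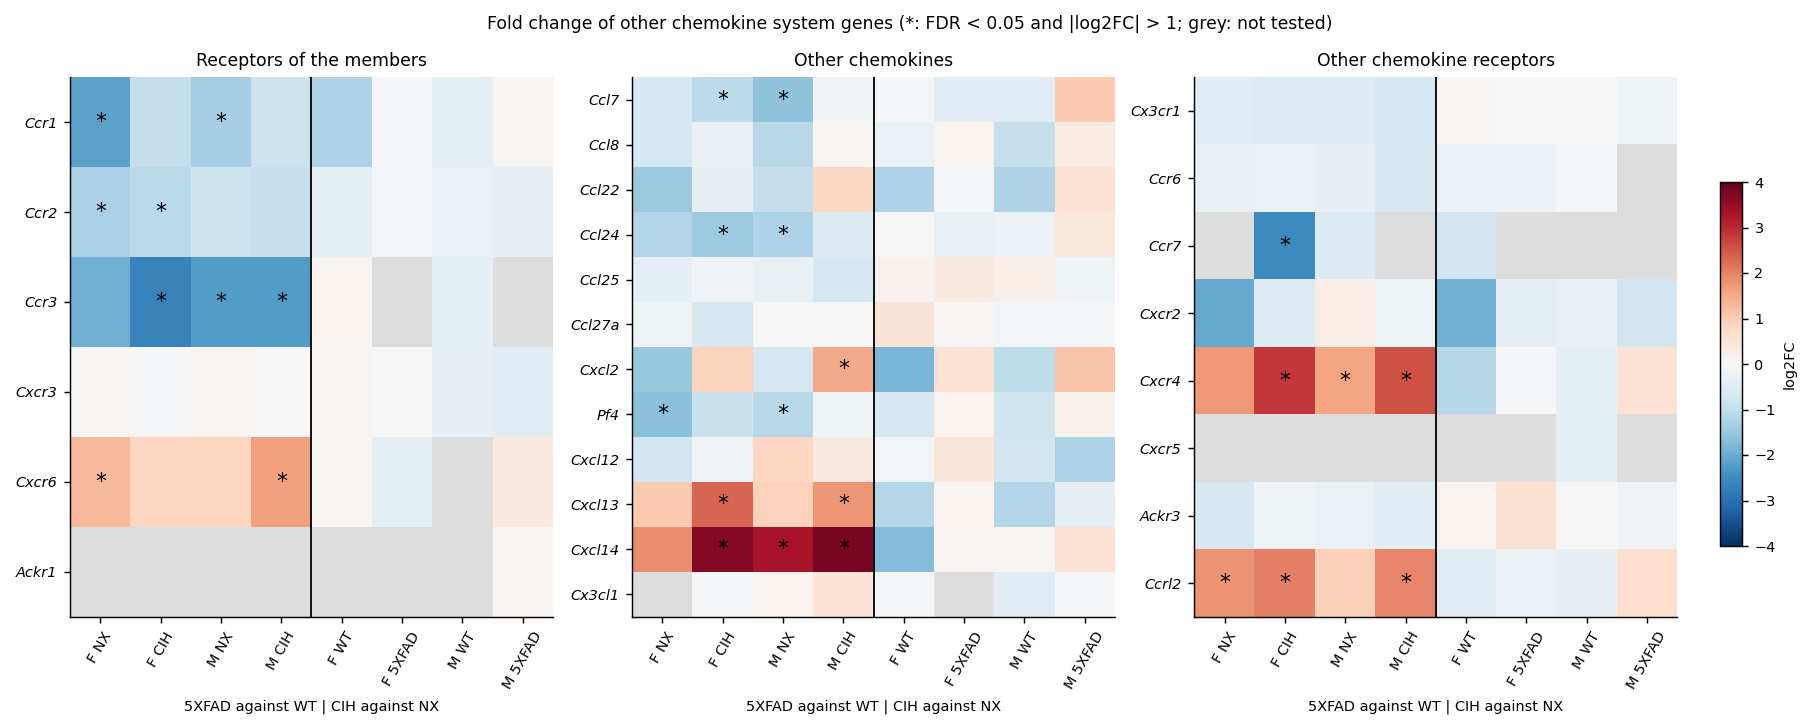
Log2FC (colour) of receptors of the 10 chemokines, other chemokines and other receptors in the 4 genotype comparisons (left of each line) and the 4 CIH comparisons (right), with asterisks at FDR < 0.05 and an absolute log2FC > 1 and grey where not tested. Cxcl14, Cxcl13, Cxcr4, Ccrl2 and Cxcr6 carry asterisks as higher in 5XFAD and Ccr1, Ccr2 and Ccr3 as lower.

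All 20 regulators of chemokine genes on the list were tested. Called higher in 5XFAD were 2 in F NX and 1 in each of the other genotype comparisons, and 1 was called lower in M CIH. The shares of all genes called were 5.99% in F NX, 13% in F CIH, 8.25% in M NX and 18.7% in M CIH. Irf7, a transcription factor of the interferon response, rose in all 4, with log2FC of 1.57 in F NX (FDR 0.0309), 1.44 in F CIH (FDR 0.00119), 1.36 in M NX (FDR 0.00647) and 1.95 in M CIH (FDR 6.85e-06). Stat2, a signal transducer of type I interferon, rose in F NX (1.09, FDR 0.0205), and Rel, an NF-κB subunit, fell in M CIH (−1.23, FDR 3.4e-06). For CIH 0 regulators were called in the 4 pairs, and 10 of 20 passed FDR alone in M WT, against 28.6% of all genes.

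Within groups, some chemokines varied together from library to library. Each gene was compared over 19 F and 20 M libraries by the correlation of log2 CPM after group means were subtracted, which describes libraries that share their depth and cell makeup. Genes were ranked by the smaller of the F and M correlations. By that measure Ccl3 and Ccl4 were each other's nearest gene of 13445, with r of 0.97 in F and 0.85 in M, and Ccl12 and Cxcl10 were so with 0.85 and 0.81. In M alone the order was another: Ccl3 had an r of 0.91 with Cxcl10 and 0.87 with Ccl12. Next to Ccl4 stood Junb (0.83 and 0.86), an AP-1 subunit, and Ier3 (0.80 and 0.81), both of which are on the dissociation list. The genes most like Ccl5 were Ifit3 (0.81 and 0.76), an interferon-induced gene, Coasy and Ifi35, and Irf7 (0.77 and 0.70) was among those most like Cxcl10. Ccl6 was nearest to Mdh2 (0.92 and 0.93), Akr1a1 and Cstb, and Cxcl16 to Tagln2 (0.86 and 0.87), Aprt and Fcgr4. Ccl2 stood with Klf2 (0.73 and 0.81), also on the dissociation list, Hes1 and Tsc22d4. Lower values were found for Ccl9, nearest to Marcksl1 (0.69 and 0.74), and Cxcl9, nearest to H2-Q4 (0.69 and 0.57).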

How the data were processed

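Gene counts and FPKM values of 39 libraries of CD11b+ cells were analysed, with gene lengths read for the M table alone. The authors aligned paired-end mRNA reads to GRCm38/mm10 with HISAT2 (version not given in the sources used here) and deposited whole-number read counts per gene without normalization. The authors also deposited FPKM values. In the M table these were counts divided by gene length, total counts and a factor of 0.794 to 1.2 per library, which correlated with the TMM factor (r = 0.998). In the F table they followed total counts without such a factor, and division by gene length was not checked there. The counting tool and its use of strand are not given in the sources used here, so reads shared between near-identical or overlapping genes cannot be checked.

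The 10 chemokines and all gene lists were chosen with earlier results of these data known. Groups came from the labels. Each pair of groups was fitted on its own in edgeR 4.0.16 (R 4.3.3, TMM, quasi-likelihood F test) over genes that exceeded 1 CPM in 3 or more samples compared, with Benjamini-Hochberg adjustment over all genes tested, and the interaction of genotype and treatment over the 4 groups of a cohort. The SE was derived from the F statistic. Levels were CPM, counts per 1e+06 of library size times TMM factor, within a cohort, and 1 CPM rests on 13 to 26 reads. Named were all 10 members, at most the 4 genes with the largest absolute log2FC per list among those called, Cx3cr1, and for each member the 3 genes with the highest smaller correlation of both cohorts, of which some are given. Alternatives were DESeq2 1.42.0, the likelihood ratio test, library size alone, FDR alone, no filter, a replicate block, a joint fit of all 4 groups of a cohort, and leaving out single libraries. The scripts were tested on simulated counts. Other lists read for cell makeup were dendritic, B cell, astrocyte, oligodendrocyte, neuron and endothelial markers, of which 1 to 3, 0 or 1, 1 to 3, 0 to 3, 0 or 1 and 2 genes, respectively, were called in the genotype comparisons. Columns of the authors' own comparisons were not used, and a few genes of the fixed lists are not reported here.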

Additional observations from a re-analysis of the deposited data

Results flagged for a closer look

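In 7 of 80 gene and group sets, 1 library lay farther from the others than Dixon's 95% critical value allows, a limit that chance passes in about 1 in 20 sets. M WT CIH 1 was so for Ccl3 (138 CPM, the others 50.4 to 66.3), Ccl4 (87.8 CPM, the others 40.9 to 51.0) and Cxcl10 (7.58 CPM, the others 2.32 to 3.73). F WT CIH 1 was so for Ccl5 (8.95 CPM, the others 1.63 to 3.52), Ccl12 (52.2 CPM, the others 19.2 to 24.7) and Cxcl10 (31.2 CPM, the others 4.51 to 8.46). M WT NX 3 was so for Ccl9 (218 CPM, the others 134 to 156).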

How the results depend on the processing

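None of the 100 fold changes turned sign past the limits under any alternative, and 96 of 100 kept their side of them with DESeq2 and with the likelihood ratio test, 97 without a filter and 99 with library size alone. The number of chemokines called moved as follows. FDR alone gave 5 in F CIH (3 by both limits), 5 in M NX (3) and 4 for CIH in M WT (1). DESeq2 gave 4 in F NX (2), 2 for CIH in M WT and 1 in the M interaction (0), and the likelihood ratio test the same 3 numbers, 4, 2 and 1. Without a filter there were 2 for CIH in M WT and 2 in the M interaction, and the fit of all 4 groups gave 3 in F NX and 0 for CIH in M WT. With 1 library left out, the count ranged from 0 to 4 in F NX, 3 to 6 in F CIH, 0 to 3 for CIH in M WT and 0 to 2 in the M interaction, where the 2 were reached without M 5XFAD NX 1 (Ccl6 1.24 and Ccl9 1.11, FDR 0.0466 for both). In F CIH the 6 were reached without F WT CIH 1. For CIH in M WT the 3 were reached without M WT CIH 1 and the 0 without M WT NX 5. Over all genes, F NX had 869 calls and 27 to 1880 with 1 library left out, DESeq2 gave 1197 and the likelihood ratio test 1180. The M interaction had 0 calls over all genes with edgeR, 381 with DESeq2, 175 with the likelihood ratio test and 790 without a filter. The fits without M 5XFAD NX 4 and 5 and without M WT NX 3 and 5 were chosen after seeing the data. The causes were not tested.

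Samples with the same replicate number did not deviate together in all pairs (correlations of −0.55 to 0.31, in no comparison all over 0.1). These few pairs cannot tell whether such samples share more than a number. With it as a block, 0 chemokines were called in F NX, where Ccl3 had a log2FC of 1.78 (FDR 0.0596) and Ccl4 1.60 (FDR 0.0781) and 7 of all genes were called, and the block changed no other call among the chemokines. In no comparison did every sample correlate best with its own number.

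Precision was limited by 4 or 5 libraries per group and, for Cxcl9 and Ccl5, by low counts. The beads and the bulk RNA do not tell microglia from other CD11b+ cells, and the labels name no batch.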
